A study of Homo sapiens with 4 samples.

Results

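The cornified envelope genes described here are IVL, SPRR1A, SPRR1B, SPRR2A, SPRR2D, SPRR3, TGM1, CNFN, SBSN and PADI1. They were taken by symbol after the transcripts of each library had been mapped to genes with GENCODE 29 and their estimated reads and TPM (a level scaled by transcript length and library size) summed per gene. They make up 10 of 56865 genes, and all 10 were found. The study treated MDA-MB-468 cells, a human triple-negative breast cancer line that its labels partly spell MDA-MD-468, at passage 12. The MS1943 group (n = 2 libraries) received 5 µM MS1943, a compound named in the labels as a degrader and known as one made against the histone methyltransferase EZH2, for 3 days. The DMSO group (n = 2 libraries) received the solvent alone, and no exposure time is labelled for it. Dishes were seeded in duplicate and poly(A) RNA was sequenced. This is a single cell line, and nothing in the labels says that the libraries of a group came from independent experiments, so a p-value reflects how far these libraries differ among themselves, and that may be technical. The titles give each MS1943 library 3 letters and each DMSO library 1 letter, which the labels do not explain.

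The cornified envelope is a protein shell that replaces the plasma membrane of a squamous epithelial cell as it ends its life in the epidermis or in other stratified epithelia. Precursors such as involucrin and the small proline-rich proteins are laid down beneath the membrane and joined by transglutaminases into an insoluble sheet, while peptidylarginine deiminases convert arginine to citrulline in keratins and filaggrin. The precursor genes IVL and SPRR stand side by side in the epidermal differentiation complex of chromosome 1, and breast epithelial cells do not normally build such a shell.

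The SPRR genes are close copies of each other, so their coding sequences are shown to make plain how few bases tell their reads apart. The SPRR1 pair lies on the plus strand at chr1:152985231-152985500 (SPRR1A) and chr1:153032346-153032615 (SPRR1B), and the SPRR2 pair on the minus strand at chr1:153056517-153056735 (SPRR2A) and chr1:153040128-153040346 (SPRR2D), all in GRCh38 and from GENCODE 29 transcripts. They are written 5′ to 3′, and capitals mark the bases that differ within a pair.
SPRR1A: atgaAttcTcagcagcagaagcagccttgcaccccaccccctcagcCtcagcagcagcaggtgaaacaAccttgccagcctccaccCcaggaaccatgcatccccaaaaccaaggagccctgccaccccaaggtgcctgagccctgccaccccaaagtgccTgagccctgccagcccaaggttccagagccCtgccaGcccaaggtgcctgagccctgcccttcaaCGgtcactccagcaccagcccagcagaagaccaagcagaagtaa
SPRR1B: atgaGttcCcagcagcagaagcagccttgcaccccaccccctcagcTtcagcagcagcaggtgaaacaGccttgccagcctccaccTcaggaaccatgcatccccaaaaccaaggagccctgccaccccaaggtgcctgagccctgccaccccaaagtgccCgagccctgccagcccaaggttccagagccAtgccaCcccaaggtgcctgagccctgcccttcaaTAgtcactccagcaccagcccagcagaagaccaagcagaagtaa
SPRR2A: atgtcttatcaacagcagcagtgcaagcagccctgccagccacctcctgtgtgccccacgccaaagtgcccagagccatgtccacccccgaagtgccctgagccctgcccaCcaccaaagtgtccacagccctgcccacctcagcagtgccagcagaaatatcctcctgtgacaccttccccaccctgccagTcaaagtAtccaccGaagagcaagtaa
SPRR2D: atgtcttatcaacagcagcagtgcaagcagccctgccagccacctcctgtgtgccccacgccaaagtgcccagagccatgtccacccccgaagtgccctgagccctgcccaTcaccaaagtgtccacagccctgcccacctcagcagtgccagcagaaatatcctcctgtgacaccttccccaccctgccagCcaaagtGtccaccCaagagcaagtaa
SPRR1A and SPRR1B differed at 10 of 270 coding bases, an identity of 96.3%. SPRR2A and SPRR2D differed at 4 of 219 coding bases, an identity of 98.2%. Of the stretches of 31 bases in each gene's transcripts, 73.8% were found in no other gene for SPRR1A, 89.3% for SPRR1B, 48.8% for SPRR2A and 70.1% for SPRR2D. For IVL, SPRR3, TGM1, CNFN, SBSN and PADI1 the share was 100%. The split of reads between SPRR1A and SPRR1B, and among the SPRR2 genes, is therefore uncertain, and their sums are given as well. No member overlaps another annotated gene, so the lack of strand information in the library kit does not touch them.

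The libraries held 69878745 and 47564377 estimated reads in the MS1943 group and 64720699 and 71378893 in the DMSO group. Read counts are also given as CPM (counts scaled to library size with edgeR's TMM factors). A count of 3 reads, the limit that 0 reads allows, stood for 0.0451 and 0.0655 CPM in the MS1943 libraries and 0.0455 and 0.03996 CPM in the DMSO libraries. EZH2, whose protein is the compound's target, had 104 and 108 CPM in MS1943 cells against 126 and 117 CPM in DMSO cells, a log2 fold change of -0.19 ± 0.06 (SE) with an adjusted p of 0.00605 from the quasi-likelihood F test of edgeR, adjusted by Benjamini-Hochberg. RNA levels do not check a loss of protein. Mitochondrial genes took 3.52% and 3.11% of reads in MS1943 cells against 1.65% and 1.78% in DMSO cells, and the part of this in the results was not tested. The 9 epithelial markers of the line were all detected, with sums of 15404 to 16267 CPM in MS1943 cells and 11807 to 11846 CPM in DMSO cells. They did not rise together: at an adjusted p under 0.05 by edgeR, 3 were higher, 3 lower and 3 did not pass. KRT5 and KRT14, both called higher, are also counted among the squamous keratins below. KRT5 averaged 3886 CPM in MS1943 cells against 1067 CPM in DMSO cells, which enters the sums. Over all tested genes 30.0% were higher and 29.4% lower. Summed markers of leukocytes lay at 117 to 118 CPM in MS1943 cells and 148 to 165 CPM in DMSO cells, and those of fibroblasts at 28.97 to 32.7 CPM in MS1943 cells and 24.3 to 24.8 CPM in DMSO cells. Endothelial markers summed to 2.63 to 2.84 CPM in MS1943 cells and 6.09 to 6.25 CPM in DMSO cells, and melanocyte markers to 19.3 to 20.3 CPM in MS1943 cells and 11.1 to 12.1 CPM in DMSO cells. None of these marker genes was at 0 in all 4 libraries, and their part in the results was not tested. In bulk RNA, a change in the number of cells that express a gene and a change in RNA per cell cannot be told apart.

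Across the 10 genes, MS1943 cells held more RNA of the precursor genes IVL and SPRR1B, of SBSN and of the deiminase PADI1, and less RNA of the crosslinking enzyme TGM1 and of CNFN. IVL, SPRR1B, SBSN and PADI1 were called higher and TGM1 and CNFN lower at an adjusted p under 0.05. The other 4 genes, SPRR1A, SPRR2A, SPRR2D and SPRR3, had too few reads to enter the test. These counts stand beside a wide response: 59.3% of 19358 tested genes were called in either direction, 30.0% higher and 29.4% lower, with a median log2 fold change of -0.01. Higher calls made up 50.5% of all calls, and 39.9% when libraries were scaled by total reads alone, which left the 6 member calls in place. SPRR1B and SBSN entered the test only through their reads in MS1943 cells, since neither DMSO library reached the filter. Such a filter favours a higher call, so these 2 calls carry no weight as support. IVL, PADI1, TGM1 and CNFN reached the filter in both groups.

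**Figure D1:**
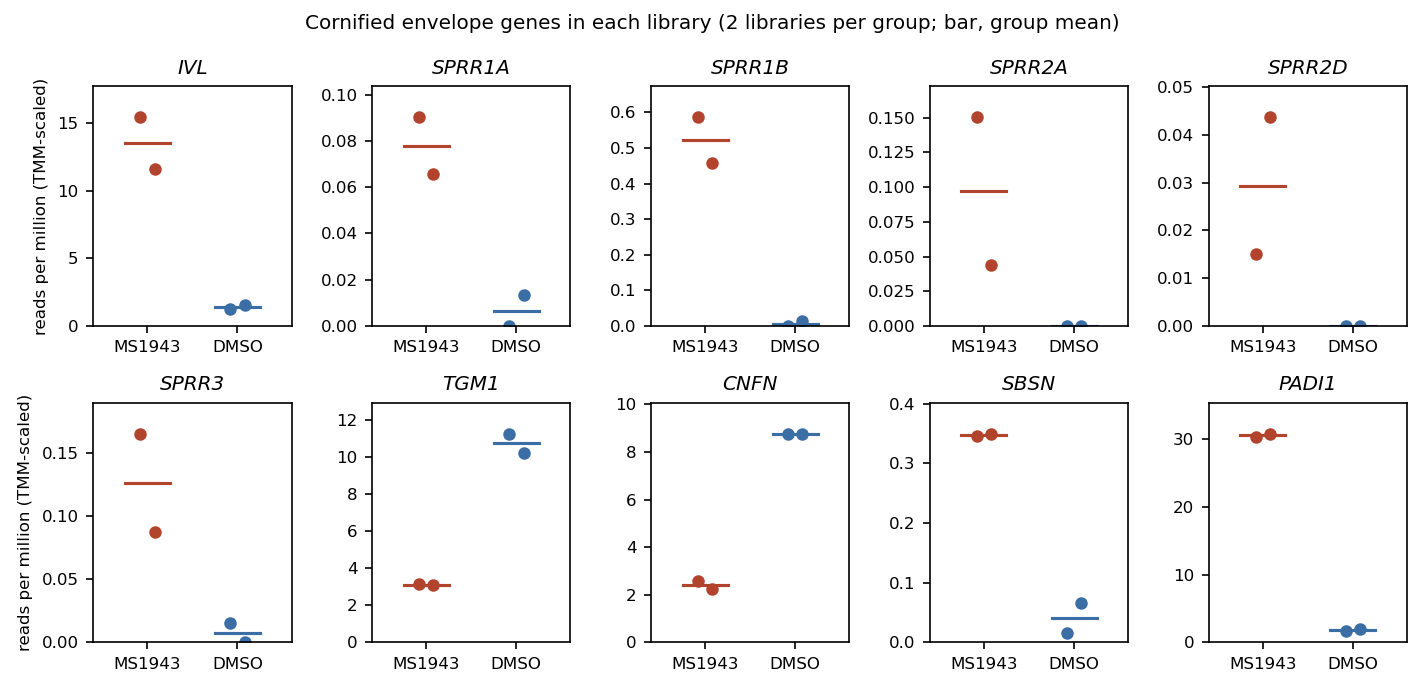
CPM (TMM-scaled, vertical axis, a scale of its own in each panel) of each cornified envelope gene in the 2 MS1943 libraries (left, red) and the 2 DMSO libraries (right, blue); points are libraries and bars are group means. TGM1 and CNFN lie lower in both MS1943 libraries, IVL and PADI1 lie higher in both, and SPRR1A, SPRR2A, SPRR2D and SPRR3 rest on at most 11 reads in any library.

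IVL encodes involucrin, an early scaffold protein of the envelope, and lies at chr1:152908545-152911886 on the plus strand (ENSG00000163207, GRCh38). IVL had 1025 and 531 reads in MS1943 cells, or 15.4 and 11.6 CPM, against 84 and 115 reads, or 1.28 and 1.53 CPM, in DMSO cells. Both MS1943 libraries were above both DMSO libraries, with the first MS1943 library the higher of the pair. The difference was 9.63-fold, a log2 fold change of 3.27 ± 0.15 (SE, n = 2 each), with an adjusted p of 5.56e-13 by edgeR. IVL ranked 164 from the largest rise among the 19358 tested genes. The annotation holds 1 transcript of IVL, and its level was 10.4 and 7.87 TPM in MS1943 cells against 0.931 and 1.16 TPM in DMSO cells.

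The SPRR genes encode short proline-rich proteins that bridge other envelope proteins. SPRR1B (ENSG00000169469, chr1:153031202-153032900, plus strand) had 39 and 21 reads in MS1943 cells against 0 and 1 read in DMSO cells, which is 0.586 and 0.459 CPM against 0 and 0.0133 CPM. The DMSO libraries were both under the limit that 0 reads allows. The pooled ratio, the summed reads of a group over its summed TMM-scaled library sizes, in MS1943 over DMSO, was 75.3, with an exact 95% interval of 13.01 to 3024 for counting error only, and the adjusted p was 1.31e-06 by edgeR. The fitted log2 fold change of 5.87 ± 0.74 depends on the prior count and is no bound. It was 5.11 without DMSO replicate 1 and 7.97 without DMSO replicate 2, and stayed called in both cases.

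SPRR1A (ENSG00000169474) had 6 and 3 reads in MS1943 cells against 0 and 1 read in DMSO cells, a pooled ratio of 11.3 with a counting interval of 1.57 to 495. Its annotated model in GENCODE 29 holds the 270 coding bases alone, so few fragments can be assigned to it. SPRR1A and SPRR1B summed had 45 and 24 reads in MS1943 cells against 0 and 2 reads in DMSO cells. Summing removes the uncertain split, and the pooled ratio of the pair was 43.3, with a counting interval of 11.5 to 365. Like SPRR1B, the pair entered the test only through its MS1943 reads, so the filter favoured a higher call, which carries no weight as support. The fitted log2 fold change was 5.24 ± 0.67 with an adjusted p of 1.43e-06 by edgeR, and it was 4.41 without DMSO replicate 1 and 8.17 without DMSO replicate 2.

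SPRR2A (ENSG00000241794, chr1:153056113-153057537, minus strand) had 10 and 2 reads in MS1943 cells and 0 reads in both DMSO libraries. Against a floor of 3 reads over the DMSO group its pooled ratio was 5.02. That ratio leaves out the counting error of the MS1943 reads and is no bound. SPRR2D (ENSG00000163216, chr1:153039725-153041931, minus strand) had 1 and 2 reads in MS1943 cells and 0 in DMSO cells, which is at the floor and gives no fold. SPRR3 (ENSG00000163209, chr1:153001747-153003856, plus strand) had 11 and 4 reads in MS1943 cells against 1 and 0 reads in DMSO cells, a pooled ratio of 18.8 with a counting interval of 2.90 to 793. In each of these genes the MS1943 libraries were above the DMSO libraries, but by so few reads that no size can be read closely. The 7 SPRR2 genes of the annotation summed had 14 and 6 reads in MS1943 cells against 3 and 0 reads in DMSO cells, too few for the test, a pooled ratio of 8.37 with an interval of 2.48 to 44.0. The 6 reads of MS1943 replicate 2 and the 3 reads of DMSO replicate 1 stand close. The SPRR members of the list (SPRR1A, SPRR1B, SPRR2A, SPRR2D and SPRR3) together held 99 reads in MS1943 cells and 3 in DMSO cells.

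TGM1 encodes transglutaminase 1, the membrane-bound enzyme that crosslinks envelope precursors in keratinocytes, and lies at chr14:24249114-24264432 on the minus strand (ENSG00000092295). TGM1 had 208 and 141 reads in MS1943 cells, or 3.13 and 3.08 CPM, against 742 and 768 reads, or 11.3 and 10.2 CPM, in DMSO cells. Both MS1943 libraries were below both DMSO libraries, and the MS1943 pair lay close together. TGM1 fell by 1.79 ± 0.11 on the log2 scale, 3.46-fold lower in MS1943 cells, with an adjusted p of 5.99e-11 by edgeR. The main coding transcript of TGM1 held 82.9% and 92.5% of the gene's reads in MS1943 cells against 91.4% and 88.1% in DMSO cells. The level of that transcript was 1.32 and 1.45 TPM in MS1943 cells against 5.63 and 5.11 TPM in DMSO cells. The main transcript thus fell with the gene. Its shares of reads in the 2 groups overlapped, so the fall cannot be placed in that transcript alone.

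CNFN encodes cornifelin, a small envelope constituent, and lies at chr19:42387019-42390287 on the minus strand (ENSG00000105427). CNFN had 171 and 103 reads in MS1943 cells, or 2.57 and 2.25 CPM, against 577 and 658 reads, or 8.76 and 8.76 CPM, in DMSO cells. The groups did not overlap and the DMSO libraries had nearly equal values. CNFN fell by 1.85 ± 0.12 on the log2 scale, 3.61-fold lower in MS1943 cells, with an adjusted p of 1.3e-10 by edgeR. CNFN ranked 402 and TGM1 435 from the largest fall among the tested genes. SBSN encodes suprabasin, a secreted protein of the upper epidermal layers, at chr19:35523367-35528351 on the minus strand (ENSG00000189001). SBSN had 23 and 16 reads in MS1943 cells, or 0.346 and 0.350 CPM, against 1 and 5 reads, or 0.0152 and 0.0666 CPM, in DMSO cells. Both MS1943 libraries were above both DMSO libraries, which themselves differed by 4 reads. The fitted log2 fold change was 2.98 ± 0.61 with an adjusted p of 3.38e-04 by edgeR, and the pooled ratio was 8.16, with a counting interval of 3.43 to 23.6. The fitted value was 2.35 without DMSO replicate 1 and 4.33 without DMSO replicate 2, called in both.

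PADI1 encodes peptidylarginine deiminase 1, an enzyme of the upper epidermis that converts arginine to citrulline in keratins and filaggrin, and lies apart from the complex at chr1:17205126-17246005 on the plus strand (ENSG00000142623). PADI1 had 2016 and 1408 reads in MS1943 cells, or 30.3 and 30.8 CPM, against 107 and 151 reads, or 1.62 and 2.01 CPM, in DMSO cells. The groups were far apart and each pair lay close together. PADI1 rose 16.7-fold, a log2 fold change of 4.06 ± 0.10 with an adjusted p of 8.95e-17 by edgeR, and ranked 100 from the largest rise. The main coding transcript of PADI1 held 81.3% and 84.6% of the gene's reads in MS1943 cells against 73.5% and 88.3% in DMSO cells. A PADI1 transcript with a retained intron held 17.4% and 14.6% in MS1943 cells against 25.2% and 11.7% in DMSO cells, so the shares overlapped.

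Per length, the order of the members differed between the groups. In MS1943 cells PADI1 stood at 13.01 and 12.4 TPM, CNFN at 12.1 and 10.7 TPM, IVL at 10.4 and 7.87 TPM and TGM1 at 3.85 and 2.54 TPM. In DMSO cells CNFN stood at 46.0 and 46.0 TPM, TGM1 at 9.35 and 9.32 TPM, IVL at 0.931 and 1.16 TPM and PADI1 at 0.770 and 0.822 TPM. CNFN and TGM1 led in DMSO cells, while PADI1, CNFN and IVL lay within a narrow range in MS1943 cells, where neighbours did not overlap but differed by less than 1 TPM at their nearest libraries.

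**Figure D2:**
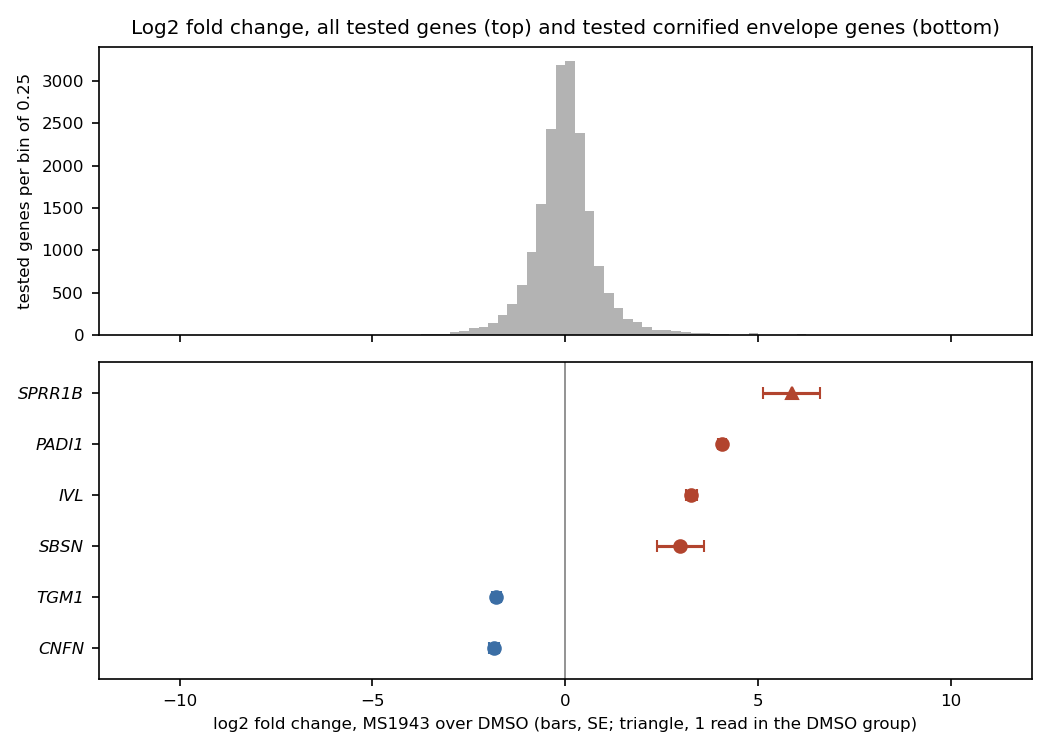
Log2 fold change of MS1943 over DMSO (horizontal axis) for all 19358 tested genes as a histogram in bins of 0.25 (top) and for the 6 tested cornified envelope genes with their standard errors (bottom); red is higher, blue is lower, and the triangle marks SPRR1B with 1 read in the DMSO group. PADI1 at 4.06 and IVL at 3.27 lie far to the right, and TGM1 at -1.79 and CNFN at -1.85 to the left.

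The stretches upstream of the start sites of IVL, SPRR1B, SBSN, PADI1 and CNFN are shown because these genes moved in both directions and their sequences differ in whether they hold an AP-1 motif (TGANTCA, searched on both strands), the binding motif of FOS and JUN proteins. Each is the 250 bases before the RefSeq start site (GRCh38.p14), read 5′ to 3′ on the gene's strand: chr1:152908296-152908545 for IVL and chr1:153030953-153031202 for SPRR1B on the plus strand, chr19:35528312-35528561 for SBSN on the minus strand, chr1:17204878-17205127 for PADI1 on the plus strand and chr19:42390298-42390547 for CNFN on the minus strand. Capitals mark AP-1 matches.
IVL: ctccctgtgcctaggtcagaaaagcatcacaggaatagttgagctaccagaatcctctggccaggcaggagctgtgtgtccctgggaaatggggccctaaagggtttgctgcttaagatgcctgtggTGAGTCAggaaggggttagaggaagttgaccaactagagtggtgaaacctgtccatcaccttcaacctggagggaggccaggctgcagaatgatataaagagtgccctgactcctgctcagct
SPRR1B: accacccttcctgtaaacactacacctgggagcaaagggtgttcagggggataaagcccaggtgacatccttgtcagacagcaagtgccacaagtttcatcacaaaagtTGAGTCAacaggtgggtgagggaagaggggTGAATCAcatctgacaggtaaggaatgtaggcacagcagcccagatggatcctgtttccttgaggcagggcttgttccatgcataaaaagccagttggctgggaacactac
SBSN: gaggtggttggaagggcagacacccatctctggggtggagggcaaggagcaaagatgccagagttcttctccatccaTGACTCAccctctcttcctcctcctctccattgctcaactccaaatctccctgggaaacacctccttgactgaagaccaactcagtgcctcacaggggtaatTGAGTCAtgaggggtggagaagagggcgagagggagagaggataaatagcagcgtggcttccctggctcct
PADI1: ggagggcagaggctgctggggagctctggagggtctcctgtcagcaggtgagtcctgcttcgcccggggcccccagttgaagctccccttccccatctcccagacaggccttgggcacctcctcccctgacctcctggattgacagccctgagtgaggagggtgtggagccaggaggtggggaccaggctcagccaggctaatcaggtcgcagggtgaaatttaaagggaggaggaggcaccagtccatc
CNFN: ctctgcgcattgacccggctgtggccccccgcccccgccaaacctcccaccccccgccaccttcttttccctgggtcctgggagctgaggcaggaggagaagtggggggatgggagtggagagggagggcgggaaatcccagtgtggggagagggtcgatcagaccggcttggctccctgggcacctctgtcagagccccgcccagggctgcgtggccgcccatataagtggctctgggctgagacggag
RefSeq promoters of 300 bases (250 before to 50 after the start) were matched for 8 of the 10 genes, all but TGM1 and SPRR2D. The AP-1 motif was in 6 of those 8, against 7.71% of 35116 promoters in the table. SPRR1A, SPRR1B, SPRR2A and SPRR3, genes of the same family, were among the 6, so the matches are not separate occurrences. SPRR1A, SPRR2A and SPRR3 had too few reads to be tested for a change. IVL had 1 match, starting at -123 from the start site, and SPRR1B had 2, at -141 and -111. SBSN had 2, at -173 and -71, SPRR1A 1 at -108, SPRR2A 1 at -197 and SPRR3 1 at -170, and none was found in CNFN or PADI1. A match says only that these letters stand in the window. Among the other motifs searched, the GC box (GGGCGG, in 45.0% of promoters) was found 4 times in CNFN. The octamer ATGCAAAT (1.77% of promoters) and an ETS motif (ACCGGAA or CAGGAAGT, 6.60%) were each found in SPRR2A, the CARE motif TGATGNAA (3.62%) in SPRR1B, the CACCC box CCACACCC (3.28%) in PADI1 and the ARE motif TGACNNNGC (13.4%) in CNFN. The UPRE motif TGACGTGG (0.729%) was found in none of the 8.

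The other envelope precursors were mostly silent. Of 41 measured, 26 had no read in any library and 7 were tested. Of these 7, 5 were called higher, 1 lower and 1 did not pass, beside 30.0% higher and 29.4% lower over all tested genes. The median log2 fold change was 0.79 beside -0.01 for all tested genes. This list and the gene lists that follow, like the members, were chosen with earlier results of these data known. Their counts and medians beside those of all tested genes are therefore a description and no support. FLG, the filaggrin gene, had 98 and 45 reads in MS1943 cells against 9 and 18 in DMSO cells and rose by 2.69 ± 0.35 on the log2 scale, with an adjusted p of 1.7e-06 by edgeR. CSTA, which encodes the protease inhibitor cystatin A, had 30 and 25 reads in MS1943 cells against 2 and 4 in DMSO cells, with a log2 fold change of 3.48 ± 0.54 and an adjusted p of 1.64e-05. TCHH, the trichohyalin gene of hair follicles, rose by 0.69, TCHHL1 by 0.95 and CST6 by 0.79, but CST6 lost its call under 7 of the 10 alternatives run and its adjusted p was 0.0253. PI3, which encodes the elastase inhibitor elafin, was the precursor that fell, to 29.7 and 22.5 CPM in MS1943 cells against 61.8 and 60.0 CPM in DMSO cells. FLG and CSTA passed the low-count filter only through the MS1943 libraries, so the count of higher calls and the median, which hold them, carry no weight as support. The sums of the list were 78.5 to 80.0 CPM in MS1943 cells and 91.7 to 93.8 CPM in DMSO cells.

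Genes of the envelope scaffold and desmosomes anchor the shell to keratin filaments. Of 9 tested, 6 were called higher and 2 lower, with a median of 0.49, beside 30.0% higher and 29.4% lower over all tested genes. DSG3, the desmoglein of basal squamous cells, had 571 and 328 reads in MS1943 cells against 14 and 9 in DMSO cells and rose by 5.58 ± 0.22 on the log2 scale, with an adjusted p of 7.82e-14 by edgeR. DSC2 rose by 0.70, PKP3 by 0.62 and DSP, which encodes desmoplakin, by 0.49. PKP1, a plakophilin, had 65 and 39 reads in MS1943 cells against 11 and 5 in DMSO cells, a log2 fold change of 2.99 (3.74 without DMSO replicate 1), and EVPL, the envoplakin gene, fell by 0.26. DSG3 and PKP1, 2 of the 6 higher calls, passed the filter only through the MS1943 libraries.

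Among the other transglutaminases and deiminases, TGM5 rose and PADI2 fell, while 2 of 4 tested did not pass. Over all tested genes, 59.3% were called in either direction. TGM5, a transglutaminase of the upper epidermis, had 4.98 and 4.26 CPM in MS1943 cells against 0.683 and 0.3996 CPM in DMSO cells and rose by 3.11 ± 0.21 on the log2 scale, with an adjusted p of 2.25e-10 by edgeR. PADI2, a deiminase of many tissues, had 143 and 128 CPM in MS1943 cells against 403 and 375 CPM in DMSO cells and fell by 1.52 ± 0.06, with an adjusted p of 2.42e-13. TGM1 and TGM5 thus moved in opposite directions, as did PADI2 and PADI1.

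Of 16 envelope proteases and inhibitors tested, 6 were called higher, 5 lower and 5 did not pass, with a median of 0.07. The shares over all tested genes were 30.0% higher and 29.4% lower. SERPINB3, a squamous cell carcinoma antigen, had 97 and 56 reads in MS1943 cells and 0 in DMSO cells. The pooled ratio of SERPINB3 against the floor was 64.0, which leaves out the counting error of the MS1943 reads. Its near-copy SERPINB4 had 47 and 27 reads in MS1943 cells against 1 and 1 in DMSO cells, a pooled ratio of 46.4 with an interval of 12.4 to 391, and reads may be split wrongly between these copies. Both passed the filter only through the MS1943 libraries. BLMH, the bleomycin hydrolase that breaks down filaggrin fragments, rose by 1.23 and PRSS8, a membrane protease, by 0.41. CTSH fell by 0.62 and ST14, the matriptase gene, by 0.56. Envelope lipid genes gave 4 higher, 3 lower and 7 not passed of 14 tested, beside the same shares, with a median of -0.01. ABCA12, the lipid transporter of lamellar granules, rose by 1.77 and ALOXE3, a lipoxygenase, by 4.15, with 224 and 147 reads in MS1943 cells against 10 and 16 in DMSO cells. ELOVL4 rose by 0.86, DEGS2 fell by 0.80, SMPD1 by 0.56 and FA2H by 0.31.

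Squamous keratins, the filaments that fill such cells, were called higher in 10 of 12 tested and lower in 2, with a median of 1.76. Over all tested genes 30.0% were called higher and 29.4% lower. This list too was chosen with earlier results of these data known, so its counts and median are a description and no support. Of the higher calls, 1 passed the filter only through the MS1943 libraries. KRT80 rose by only 0.14 and lost its call with DESeq2 and with total reads alone, among others. KRT14 rose by 0.23 but changed sign with transcript length offsets (-0.0036) and with limma on log2(TPM + 1) (-0.11). KRT16, a keratin of activated epidermis, averaged 1002 TPM in MS1943 cells and 96.7 TPM in DMSO cells, a log2 fold change of 3.69 ± 0.07 with an adjusted p of 2.39e-18 by edgeR. KRT6A rose by 6.48 and KRT6B by 3.63, near-identical copies whose split of reads is uncertain, and KRT75, a keratin of hair follicles, rose by 6.24. KRT5 rose by 1.86 and KRT17 by 1.66. Of 36 regulators of squamous differentiation tested, 13 were called higher, 13 lower and 10 did not pass, with a median of -0.05. Higher and lower calls were equal in number, as they nearly were over all tested genes. FOSL1, a subunit of AP-1, had 119 and 116 CPM in MS1943 cells against 4.05 and 4.69 CPM in DMSO cells and rose by 4.74 ± 0.07, with an adjusted p of 4.15e-19. JUN, a partner subunit, rose by 2.29. Of the other FOS and JUN genes listed, JUND rose by 0.94 and FOSL2 by 0.51, JUNB fell by 0.47 and FOS did not pass. KLF4, a factor of the epidermal barrier, rose by 2.51, AHR, the aryl hydrocarbon receptor, by 1.20 and HR, the hairless corepressor, by 1.24. DLX3, a homeobox factor of the upper epidermis, fell by 1.74. Whether the motifs above bear on these changes was not tested.

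**Figure D3:**
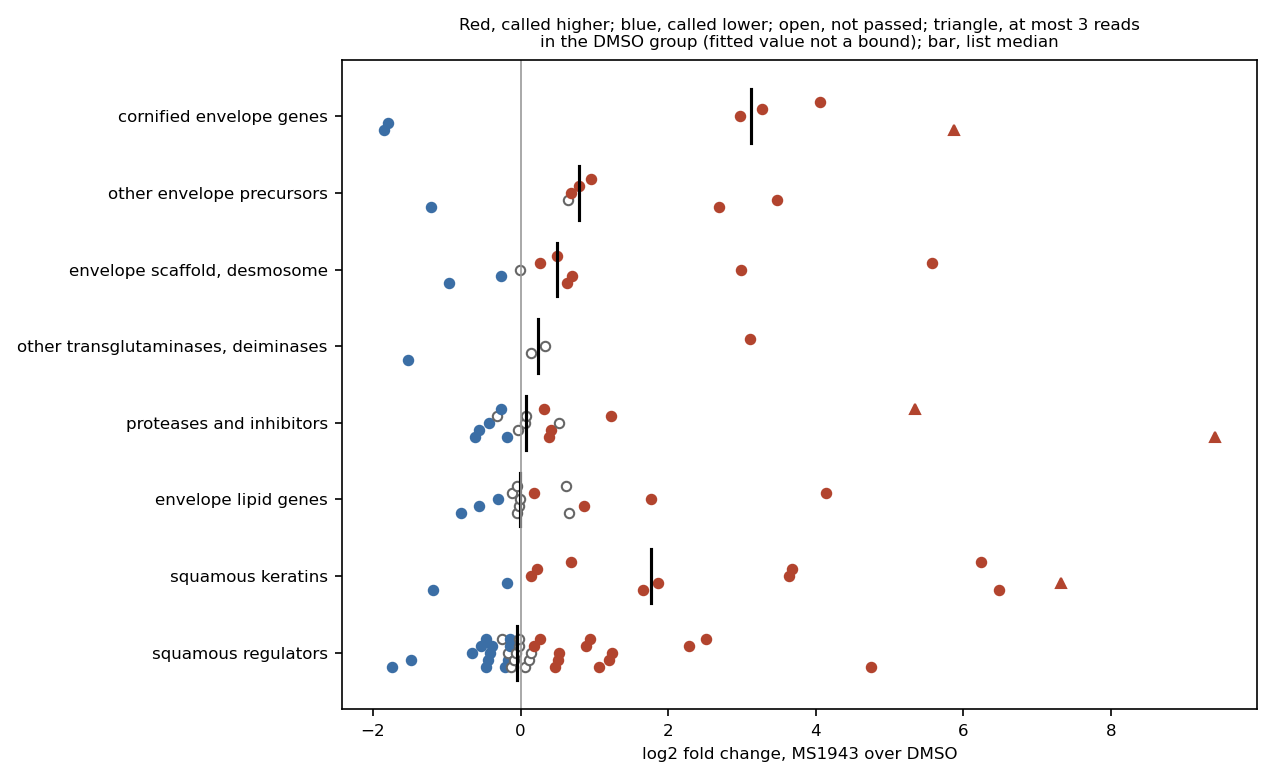
Log2 fold change of MS1943 over DMSO (horizontal axis) of each tested gene in the cornified envelope genes and 7 further lists (rows); red is called higher, blue lower, open did not pass, triangles have at most 3 reads in the DMSO group, and the bars are list medians. The squamous keratins have a median of 1.76, and the lipid genes and regulators have medians of -0.01 and -0.05.

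By position, the epidermal differentiation complex from S100A10 to S100A1 (chr1:151982915-153632039) holds 62 protein-coding genes, of which 28 had no read in any library. Of 21 tested, 6 were called higher, 7 lower and 8 did not pass, beside 30.0% higher and 29.4% lower over all tested genes. SPRR1B and FLG, 2 of the 6 higher calls, passed the low-count filter only through the MS1943 libraries and carry no weight as support. With the members of the list left out, 19 of 56 were tested, and 4 were higher, FLG among them, and 7 lower, with a median of -0.12. S100A8, a calcium-binding protein of stressed epithelium, had 9.05 and 7.38 CPM in MS1943 cells against 40.7 and 37.4 CPM in DMSO cells and fell by 2.23 ± 0.09, with an adjusted p of 5.42e-14 by edgeR. S100A9, its partner, fell by 0.60, S100A13 by 0.92 and S100A2 by 0.75, while TCHH and FLG were higher. The 4 higher calls among these genes lay at the end of the complex that holds TCHH and FLG.

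**Figure D4:**
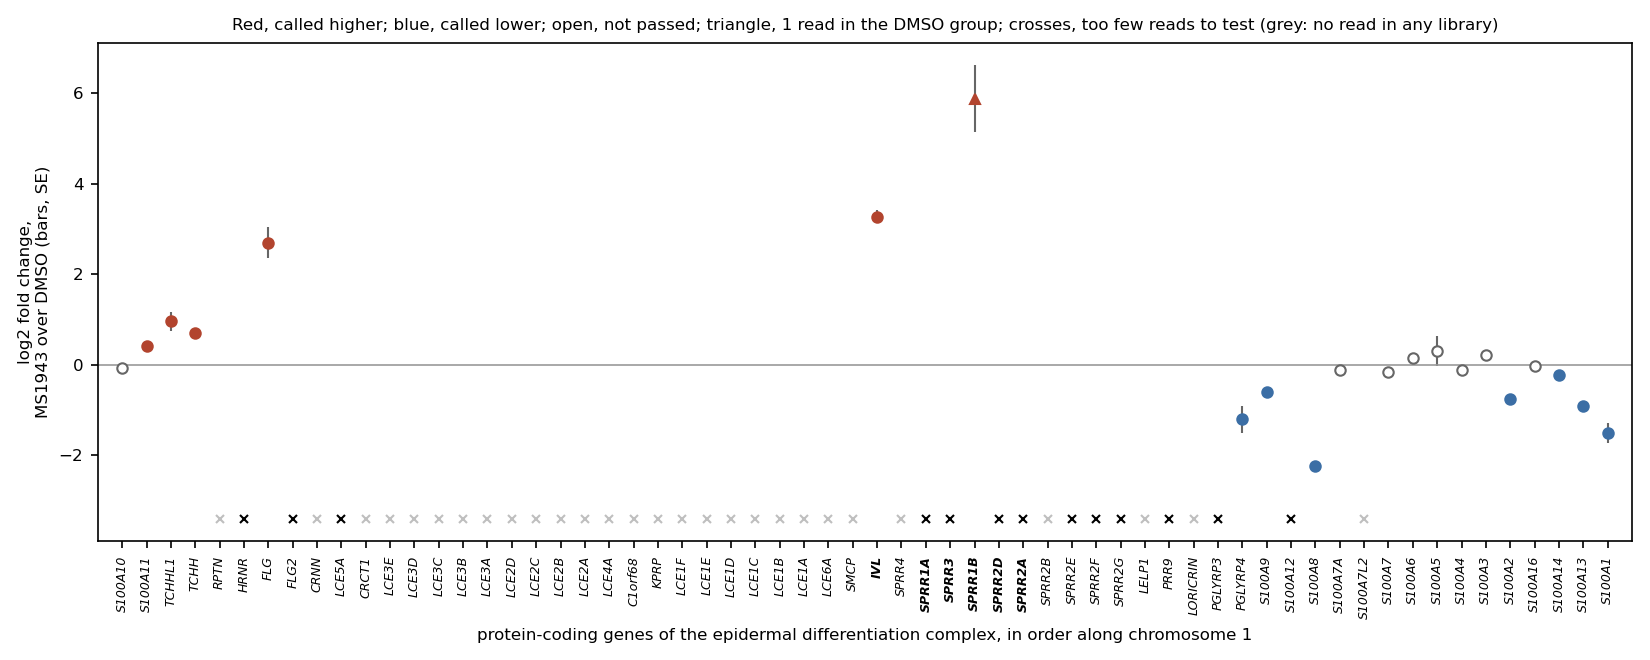
Log2 fold change of MS1943 over DMSO (vertical axis, with standard errors) of the 62 protein-coding genes of the epidermal differentiation complex in their order along chromosome 1; members are in bold, red is called higher, blue lower, open did not pass, the triangle has 1 read in the DMSO group, and crosses had too few reads to test, in grey where no library had a read. The 7 lower calls lie at the right, among them S100A8 and S100A9, and the other higher calls, among them TCHH and FLG, at the left.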

How the data were processed

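RNA was sequenced from 4 libraries, grouped by their treatment label. Per the labels' protocols, poly(A)-selected RNA was made into libraries with a TruSeq v2 kit, which does not mark strand. Per the submitters' processing notes, the build was hg38 and the tools were Salmon 0.9.1, R 3.4.3 and DESeq2, with no roles stated; annotation and options were not given in the sources used here. Both the estimated counts per transcript and the TPM values in the deposited files come from Salmon, per the file headers, and Salmon's split of reads between similar transcripts carries an error that the files do not hold.

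Of 197653 transcripts listed, those of 56865 genes were matched to GENCODE 29 by identifier without version; 4142 were not matched and held 0.482% to 0.496% of reads. Estimated counts were summed per gene and rounded to whole numbers. Genes kept by filterByExpr (10 reads at the median library size, in at least 2 libraries) were tested by quasi-likelihood in edgeR 4.0.16 (R 4.3.3) after TMM scaling, with Benjamini-Hochberg adjustment over 19358 genes. A gene was called at an adjusted p under 0.05. The script was tested on simulated data with 200 genes changed, far fewer than were called here. It found 43 of 65 changes of 1.5-fold, 54 of 66 of 2-fold and 64 of 65 of 4-fold. Of 18711 unchanged genes 23 were called. In a separate run with no change, 7 of the genes were called. Log2 fold changes are MS1943 over DMSO, with SE. Pooled ratios divide a group's summed reads by its summed TMM-scaled library sizes. Their intervals are exact (Clopper-Pearson) at 95%, and these and the floor of 3 reads cover only counting error, because there were no molecular identifiers. Replicates correlated at 0.999 in both groups and differed by more than counting noise (chi-square per degree of freedom 5.86 for MS1943 and 6.33 for DMSO). The counts of no library are thus a plain repeat of another's. Estimated counts also carry Salmon's error, so this cannot exclude technical repeats of 1 sample. Whether the libraries are independent cultures is not shown by this. Replicate numbers were given in accession order and only name the libraries.

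The alternatives were no filter, RLE size factors, total reads alone, transcript length offsets, DESeq2 1.42.0, limma 3.58.1 on log2(TPM + 1) and leaving out each library. The members and the lists were chosen with earlier results of these data known. The genes named are all 10 members, EZH2, and up to 6 called genes of each list, and of the complex by position, with the smallest adjusted p. Beyond this rule, the other FOS and JUN genes among the regulators, and KRT80 and KRT14, were named to show limits. Promoter motifs were searched in RefSeq promoters.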

Additional observations from a re-analysis of the deposited data

How the results depend on the processing

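All 6 tested members kept their direction and call under every alternative that gave a value (10 each, 9 for SBSN, which had too little TPM for limma). For SPRR1B and SBSN, which entered the main test only through their MS1943 reads, this carries no weight as support. Log2 fold changes ranged from 2.30 to 3.44 for IVL, from 2.93 to 4.23 for PADI1, from -1.90 to -1.32 for TGM1, from -1.97 to -1.78 for CNFN, from 2.35 to 4.33 for SBSN and from 1.48 to 7.97 for SPRR1B, with the smallest changes of IVL, PADI1, TGM1 and SPRR1B from limma on log2(TPM + 1), a scale that understates changes of low genes. Of the members with no main value, SPRR2A and SPRR3 were called with no filter (adjusted p 0.00882 and 0.0099) but not with DESeq2 (0.0897 and 0.146), SPRR3 without DMSO replicate 1 (0.0104) but not replicate 2 (0.0687), SPRR1A with limma on TPM (0.0132) but not with no filter (0.127) or DESeq2 (0.385), and SPRR2D in neither test that gave it a value (0.388 and 0.746). The summed SPRR1 genes ranged from 4.41 to 8.17 with a library left out and stayed called. The summed SPRR2 genes had no value in the main test, and RLE, total reads, length offsets and leaving out MS1943 replicate 1 gave none; the log2 fold change was 2.88 with no filter (adjusted p 0.0067), 2.96 with DESeq2 (0.176), 3.18 without MS1943 replicate 2 (0.0254), 6.47 without DMSO replicate 1 (0.0023) and 1.89 without DMSO replicate 2 (0.114).

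Calls over all genes numbered 8767 to 11594, and the share of them that was higher was 50.5% in the main test, 39.9% with total reads alone (median shift -0.12) and 39.5% with limma on TPM. Of 180 list counts, 170 stayed within 1.5 times. The others were 2 other precursors higher with limma, 1 scaffold gene lower with DESeq2 and with limma (1 to 2 with a library left out), 7 lipid genes lower with total reads and 5 with limma, and 1 to 2 keratins lower with a library left out. In the complex by position, 11 genes were lower with total reads, also with the members left out, and 2 non-members were higher with limma; the causes were not tested. No paired analysis was possible because the labels carry no replicate numbers; those used here follow accession order and pair nothing. With 2 libraries a group from 1 cell line, at 1 dose and time, and at most 11 reads in any library for 4 of the 10 genes, sizes for the SPRR genes are known only within wide intervals.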

Other observations

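CD68, a lysosomal protein listed here among leukocyte markers, had 32.0 and 29.7 CPM in MS1943 cells against 1.08 and 0.826 CPM in DMSO cells, a log2 fold change of 5.03 ± 0.11 with an adjusted p of 3.26e-17 by edgeR. CD14 and ITGAM, of the same list, were lower, by 0.84 and 1.94 on the log2 scale. ITGAM passed the low-count filter only through the DMSO libraries, and its call was lost with DESeq2, with length offsets, without MS1943 replicate 1 and without DMSO replicate 2 (adjusted p 0.0806 to 0.245). MITF, from the melanocyte list, rose by 0.92, while PMEL fell by 0.68, a call lost with DESeq2, length offsets, limma on TPM and without DMSO replicate 2 (adjusted p 0.0778 to 0.195).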
